A study of Homo sapiens with 18 samples.

Results

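HMLE cells expressing Twist were set directly against the arrays labelled MCF10A expressing Twist, which are 2 groups of 3 arrays and 6 of the 18 arrays of the series. The arrays were put into groups by their titles, and no vector array entered the difference itself. The scatter behind its SE, interval and p-value was pooled over all 18 arrays. Each gene had 1 value, from the probe set with exactly 1 gene symbol and the highest mean over the 18 arrays, which left 18417 genes. The series measured total RNA of both human mammary epithelial lines on Affymetrix Human Gene 1.0 ST arrays. The first Twist group is HMLE, a line immortalised with introduced telomerase and SV40 T antigens, transfected with a Twist expression vector. The second carries the MCF10A label, the name of a spontaneously immortalised line, and the same kind of Twist vector. The other groups, used as a frame and for the pooled scatter, are HMLE with Snail, MCF10A with Snail, HMLE with vector control and MCF10A with vector control, again with 3 arrays each. The cells of all groups were stable clones per the labels, grown with serum in DMEM/F12 and harvested in log growth. The labels give neither the number of clones behind a group nor the species of the Twist construct. Nothing in them tells whether the replicates of a group came from separate cultures. The p-values are therefore relative to the scatter among the arrays at hand, and that scatter may be technical only.

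Twist (gene TWIST1) is a basic helix-loop-helix transcription factor that binds DNA at E-boxes, together with an E-protein partner. In mammary epithelial cells it is known for driving epithelial-mesenchymal transition (EMT), in which cells lose cadherin-based junctions, desmosomes and keratins and gain vimentin, N-cadherin and fibrous matrix. The ID proteins, which are induced by bone morphogenetic protein (BMP) signalling, lack a DNA-binding region and take E-proteins away from factors of the Twist family.

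Some of the RNAs and promoters behind the differences are shown here as sequences. Probe sets named for a miRNA gene measure RNA from that gene and not the mature miRNA as such. MIR221 and MIR222 differed together, so their mature 3p strands are shown with the seed, bases 2 to 8, in capitals. The seed is GCUACAU in both. The main strand of MIR21, which differed in the other direction, and 3 miRNAs of the imprinted region on chromosome 14 follow, each with a seed of its own. All miRNA sequences are from RefSeq, build GRCh38.p14, written 5′ to 3′.
hsa-miR-221-3p: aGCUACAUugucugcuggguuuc
hsa-miR-222-3p: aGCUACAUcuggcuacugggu
hsa-miR-21-5p: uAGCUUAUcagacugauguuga
hsa-miR-154-5p: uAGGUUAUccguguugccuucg
hsa-miR-382-5p: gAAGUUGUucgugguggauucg
hsa-miR-410-3p: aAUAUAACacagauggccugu

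Twist binds E-boxes, so the 250 bases before the annotated start were searched for genes among the larger differences, and 5 of them are shown. SLC14A1 had the largest negative difference, FABP3 was among the largest positive ones, and ID1, ID2 and ID3 moved together. The sequences are from RefSeq, GRCh38.p14, 5′ to 3′ on the strand of the gene, with the E-box motif CANNTG, which reads the same on both strands, in capitals.
SLC14A1, chr18:45723931-45724180, plus strand: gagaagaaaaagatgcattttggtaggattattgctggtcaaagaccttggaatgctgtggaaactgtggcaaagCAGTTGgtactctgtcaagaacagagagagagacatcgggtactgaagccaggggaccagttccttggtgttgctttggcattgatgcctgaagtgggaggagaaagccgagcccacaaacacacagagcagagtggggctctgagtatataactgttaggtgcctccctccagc
FABP3, chr1:31373077-31373326, minus strand: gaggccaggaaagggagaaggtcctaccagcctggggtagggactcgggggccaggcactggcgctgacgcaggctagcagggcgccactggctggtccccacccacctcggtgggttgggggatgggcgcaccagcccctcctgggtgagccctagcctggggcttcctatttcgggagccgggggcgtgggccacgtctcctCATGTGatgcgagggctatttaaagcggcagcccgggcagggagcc
ID1, chr20:31605039-31605288, plus strand: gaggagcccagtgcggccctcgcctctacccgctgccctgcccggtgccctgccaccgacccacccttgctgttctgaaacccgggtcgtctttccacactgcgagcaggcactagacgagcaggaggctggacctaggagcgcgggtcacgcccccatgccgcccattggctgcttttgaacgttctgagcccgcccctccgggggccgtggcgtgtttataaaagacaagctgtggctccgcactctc
ID2, chr2:8681806-8682055, plus strand: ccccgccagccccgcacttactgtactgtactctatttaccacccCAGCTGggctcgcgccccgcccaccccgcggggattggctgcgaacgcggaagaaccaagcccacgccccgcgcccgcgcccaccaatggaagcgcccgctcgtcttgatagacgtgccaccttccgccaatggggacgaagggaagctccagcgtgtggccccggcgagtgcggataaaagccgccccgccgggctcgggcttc
ID3, chr1:23559502-23559751, minus strand: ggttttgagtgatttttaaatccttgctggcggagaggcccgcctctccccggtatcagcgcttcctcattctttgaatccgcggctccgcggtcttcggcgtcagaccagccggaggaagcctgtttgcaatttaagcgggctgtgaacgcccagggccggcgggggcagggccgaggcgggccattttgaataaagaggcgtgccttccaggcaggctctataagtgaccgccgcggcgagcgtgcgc
SLC14A1 held 1 match, CAGTTG, which begins at base -175 from the start. ID2 held 1, CAGCTG at -205, FABP3 held 1, CATGTG at -46, and ID1 and ID3 held 0 in this window. TGFBI and OXTR were searched in the same way and held 0 each, so 3 of the 7 promoters searched had a match, and these 7 genes were picked by hand with results known. AGTR1 was looked up as well and is named only. Of all 27305 promoters of this length in the table, 62.2% held the motif. The share was 57.3% of the 14239 genes on the array that had a promoter there, 59.9% of 289 called higher in HMLE Twist and 52.7% of 186 called lower. These letters occur by themselves in most promoters, and a match is a description of the window, not a binding site.

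The line label was checked before the results. Across the vector and Snail arrays, 20 genes separated the lines by at least 3 on the log2 scale, in the same direction in both pairs and by under 1 between vector and Snail within each line. The HMLE Twist arrays lay nearer to the HMLE level for 20 of the 20. The labelled MCF10A Twist arrays lay nearer to the HMLE level for 19 of the 20, and PDK4, a kinase that inhibits pyruvate dehydrogenase, was the exception. For PTGES and GLT8D2 they lay close to the midpoint. PTGES averaged 11.05 in labelled MCF10A Twist, against 9.22 over the HMLE and 13.32 over the MCF10A vector and Snail arrays. GLT8D2 averaged 9.42, against 10.89 and 7.83. The HMLE Twist arrays lay close to the midpoint for TFPI2 and GLT8D2. KYNU, an enzyme of tryptophan breakdown, averaged 5.94 ± 0.14 in HMLE Twist and 7.17 ± 0.12 in labelled MCF10A Twist, against 6.57 ± 0.07 in HMLE vector and 12.06 ± 0.03 in MCF10A vector (log2, mean ± SD, n = 3 each). Both Twist groups were low, as the HMLE vector arrays were. EPB41L4A, a protein of the band 4.1 family, averaged 5.35 ± 0.13 in HMLE Twist and 5.36 ± 0.05 in labelled MCF10A Twist, against 5.66 ± 0.1 in HMLE vector and 10.44 ± 0.1 in MCF10A vector. MTAP, a methionine salvage enzyme at 9p21 that MCF10A lacks by deletion, averaged 10.1 ± 0.11 in HMLE Twist and 10.8 ± 0.03 in labelled MCF10A Twist, against 10.26 ± 0.04 in HMLE vector and 5.98 ± 0.36 in MCF10A vector.

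TERT, the catalytic subunit of telomerase, went the other way. It had values of 12.62, 12.47 and 12.62 in the HMLE Twist arrays, against 8.87, 8.98 and 9.16 in the labelled MCF10A Twist arrays. The groups did not overlap, and the difference was 3.57 ± 0.08 (log2, ± SE, limma adjusted p = 7.11e-15). TERT averaged 12.85 ± 0.04 in HMLE Snail, 9.27 ± 0.04 in MCF10A Snail, 10.98 ± 0.05 in HMLE vector and 8.61 ± 0.16 in MCF10A vector, so the labelled MCF10A Twist arrays lay within the range of the MCF10A group means for this gene. For 19 of the 20 line genes they lay nearer HMLE, while for TERT they lay at the MCF10A level. TERT is not 1 of the line genes. Its means in HMLE vector and HMLE Snail lie over 1 apart, so it misses the rule by which those genes were chosen. Which cells these arrays hold was not tested further, and every value below is given under the label with this limit. Of the 20 line genes, 5 were called different between the Twist groups and 8 were alike by the rules given next. These shares describe genes chosen on other arrays.

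**Figure D1:**
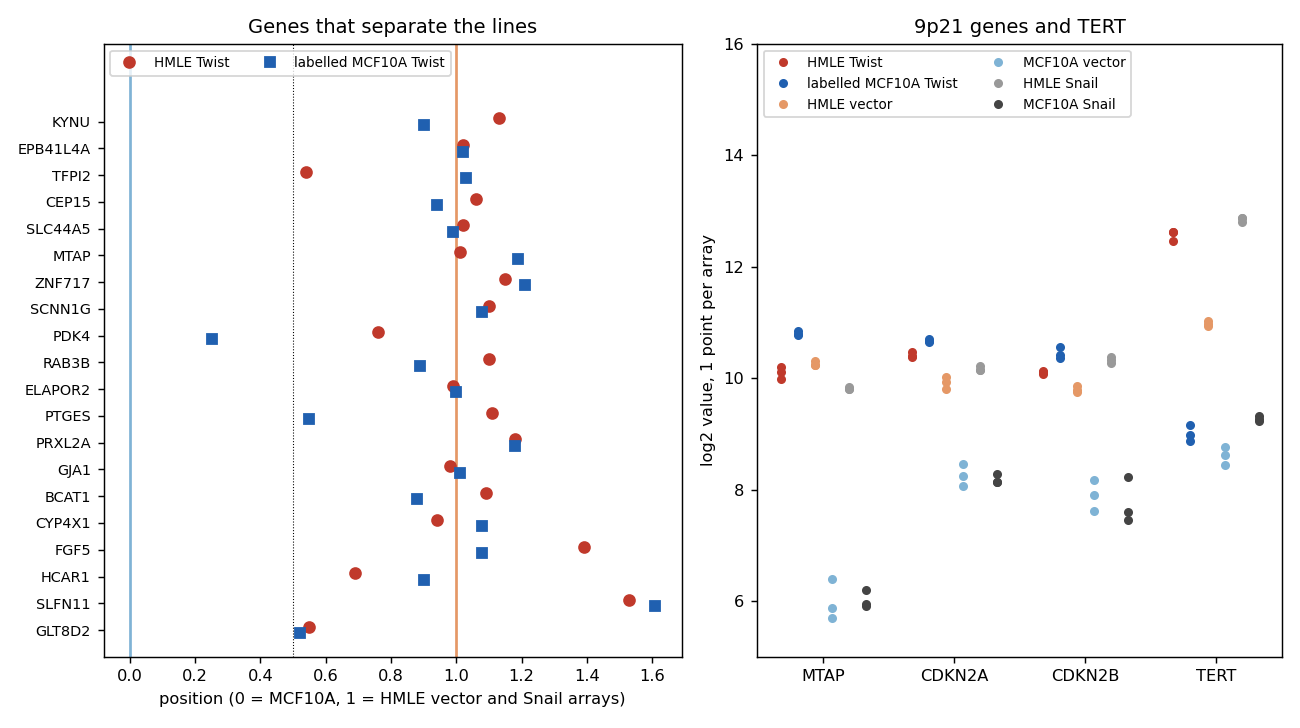
Left, position of the mean of each Twist group for 20 genes that separate the lines (0 is the mean of the 6 MCF10A vector and Snail arrays, 1 that of the 6 HMLE ones). Right, log2 values of MTAP, CDKN2A, CDKN2B and TERT, 1 point per array in the 6 groups. The labelled MCF10A Twist squares lie nearer 1 for 19 of 20 genes, while their TERT values lie near those of MCF10A vector arrays.

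The Twist groups were alike for most genes. A gene was called different where its adjusted p was under 0.05 and its log2 difference at least 1, which is 2-fold, and alike where the 95% interval of the difference lay within 0.5 either way. By these rules 14137 genes, 76.8% of 18417, were alike, and 627, or 3.4%, were called. Of the called genes 374 were higher in HMLE Twist, 2.03% of all genes, and 253 were lower, 1.37%. The remaining 3653 genes were neither alike nor called. All 627 called genes had groups that did not overlap, as did 40.4% of all genes, and 36.2% passed by adjusted p alone. The median difference over all genes was -0.01, its median size 0.14 and the median SE 0.09. Differences of at least 3 were found for 32 genes higher and 19 lower in HMLE Twist. At the edge of the call, PLAT at 1.001 and ABRAXAS1 at -1.001 lay just inside, and SH3D19 at 0.999 and FHIT, which rounds to -1.0, just outside. Array medians lay between 7.698 and 7.793 over the series, and replicates of the 6 Twist arrays correlated across genes between 0.992 and 0.998. RMA values of dim genes are compressed, so their differences are understated and low values do not mean that a gene was off. In RNA from whole cultures, fewer cells that express a gene and less RNA per cell cannot be told apart.

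**Figure D2:**
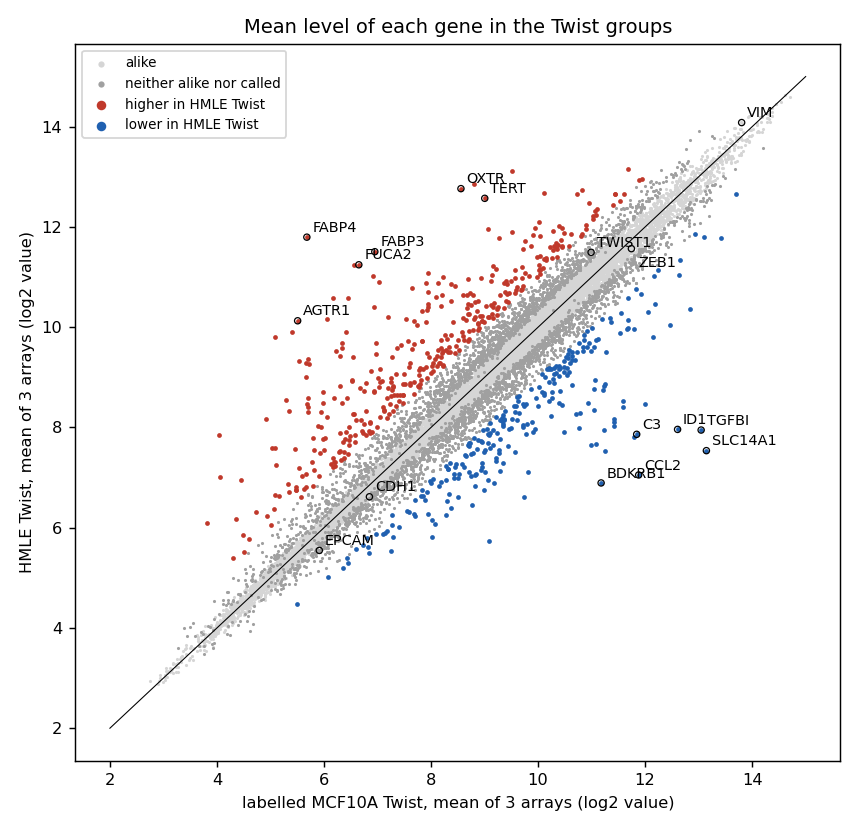
Mean log2 value of each of 18417 genes in HMLE Twist (vertical axis) and labelled MCF10A Twist (horizontal axis), 3 arrays each. Red and blue points are the 374 genes called higher and the 253 called lower in HMLE Twist, light grey the 14137 alike genes, and circles mark named genes.

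FABP4 and FABP3, of 6 measured genes of the fatty acid binding protein family, were higher in HMLE Twist, and the other 4 were alike. FABP4, the fatty acid carrier of adipocytes and capillary endothelium, had 11.62, 11.68 and 12.08 in the HMLE Twist arrays, against 6.04, 5.5 and 5.5 in the labelled MCF10A Twist arrays. The lowest HMLE Twist array was far above the highest of the other group, and the difference, the largest positive one among the called genes, was 6.12 ± 0.19, or 69.4-fold (adjusted p = 2.66e-13). In the vector groups FABP4 averaged 4.97 ± 0.27 in HMLE and 5.08 ± 0.3 in MCF10A, near the labelled MCF10A Twist level. FABP3, the carrier of heart and muscle whose promoter is shown above, had 11.52, 11.52 and 11.48 in HMLE Twist, against 7.15, 6.78 and 6.92 in labelled MCF10A Twist. Again the groups stood apart, by 4.56 ± 0.1 (adjusted p = 4.69e-15). In a list of 15 genes of lipid carriage and uptake, which does not hold FABP4, FABP3 was the only one called (6.67%, against 3.4% of all genes). Of these 15 genes 8 were alike (53.3%, against 76.8% of all genes).

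Receptors, a channel and secreted or membrane proteins of varied roles were among the 20 genes with the largest positive differences. OXTR, the oxytocin receptor, which drives contraction of mammary myoepithelium, had 12.81, 12.66 and 12.82 in HMLE Twist, against 8.57, 8.5 and 8.6 in labelled MCF10A Twist, a difference of 4.2 ± 0.08. AGTR1, the main receptor for angiotensin II, had 10.24, 9.89 and 10.25 in HMLE Twist, against 5.41, 5.24 and 5.87 in labelled MCF10A Twist, a difference of 4.62 ± 0.13. Neither gene overlapped between the groups, and both had labelled MCF10A Twist means within 1 of both vector groups. TRPA1, a cation channel gated by irritants, differed by 3.62 ± 0.15, and the intestinal protease TMPRSS15, which activates trypsinogen, by 4.71 ± 0.15. TMEFF2, a membrane protein with follistatin-like modules, differed by 4.41 ± 0.12, the zinc finger gene ZNF385D by 4.14 ± 0.1, and VEPH1, which carries a pleckstrin homology domain, by 4.1 ± 0.13. BCHE, a secreted cholinesterase, differed by 3.81 ± 0.17, PLCXD3 by 3.79 ± 0.12 and the keratinocyte protein KPRP by 4.09 ± 0.11. KPRP averaged 11.02 ± 0.13 in HMLE Twist and 6.92 ± 0.2 in labelled MCF10A Twist, against 8.02 ± 0.03 in HMLE vector and 6.93 ± 0.12 in MCF10A vector.

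Some genes counted as higher in HMLE Twist because they were lower in the labelled MCF10A Twist arrays than in both vector groups. FUCA2, a secreted fucosidase, had 11.35, 11.17 and 11.22 in HMLE Twist, against 6.72, 6.55 and 6.68 in labelled MCF10A Twist. It averaged 10.78 ± 0.02 in HMLE Snail, 10.27 ± 0.04 in MCF10A Snail, 10.97 ± 0.06 in HMLE vector and 10.05 ± 0.09 in MCF10A vector, so that the labelled arrays lay below all the other groups. MID2, a ubiquitin ligase of microtubules, had 9.48, 9.24 and 9.35 in HMLE Twist and 5.78, 5.51 and 5.81 in labelled MCF10A Twist, with vector means of 10.44 ± 0.02 in HMLE and 10.1 ± 0.02 in MCF10A. CYB5A, cytochrome b5, had 10.58, 10.33 and 10.29 in HMLE Twist and 7.34, 6.69 and 6.8 in labelled MCF10A Twist, with vector means of 11.19 ± 0.15 in HMLE and 12.32 ± 0.04 in MCF10A. For MID2 and CYB5A the HMLE Twist arrays also lay below both vector means, by less. CYB5A was chosen after its values were seen. The genes lie on different chromosomes, 6 for FUCA2, X for MID2 and 18 for CYB5A. Such genes were 61 of the 374. Their labelled MCF10A Twist mean lay over 1 below both vector means, and the HMLE Twist mean neither over 1 below nor over 1 above both.

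SLC14A1 had the largest negative difference among the called genes. This urea transporter of red cells and kidney vessels had 7.9, 7.47 and 7.25 in the HMLE Twist arrays, against 13.16, 13.15 and 13.13 in the labelled MCF10A Twist arrays. The labelled arrays lay close together and were all higher, by an amount that gives -5.61 ± 0.16 for HMLE Twist minus labelled MCF10A Twist, or 48.8-fold (adjusted p = 8.75e-14). SLC14A1 averaged 5.75 ± 0.14 in HMLE vector and 5.87 ± 0.33 in MCF10A vector, so both Twist groups lay above both vectors. Of 18 urea, water and ion channel genes it was the only one called (5.56%, against 3.4% of all genes). In that list 11 were alike (61.1%, against 76.8% of all genes). TGFBI, a secreted adhesion protein induced by TGF-beta, had 7.96, 7.93 and 7.95 in HMLE Twist, against 13.09, 13.02 and 13.03 in labelled MCF10A Twist, a difference of -5.1 ± 0.06 (adjusted p = 1.08e-18). Here the labelled arrays lay at the level of the vector groups, 12.86 ± 0.02 in HMLE and 12.92 ± 0.0 in MCF10A, and HMLE Twist was low. TFPI2, an inhibitor of serine proteases deposited in matrix, had 8.46, 7.95 and 8.39 in HMLE Twist, against 10.8, 10.62 and 10.69 in labelled MCF10A Twist, a difference of -2.44 ± 0.13. It is also one of the 20 line genes, with vector means of 10.36 ± 0.15 in HMLE and 5.67 ± 0.1 in MCF10A.

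Among the other genes lower in HMLE Twist were receptors and enzymes of peptide and lipid mediators. The bradykinin receptor BDKRB1 had 6.95, 6.59 and 7.14 in HMLE Twist, against 11.32, 11.14 and 11.08 in labelled MCF10A Twist, and BDKRB2 had 7.44, 7.52 and 7.97 in HMLE Twist, against 11.01, 11.07 and 10.91 in labelled MCF10A Twist. The groups did not overlap for either receptor, and the differences were -4.29 ± 0.14 and -3.35 ± 0.11. NPR3, which clears natriuretic peptides, differed by -3.54 ± 0.14, and the phospholipase PLD1 by -3.05 ± 0.1. DHRS3, a reductase of retinal, differed by -3.98 ± 0.11, but the vector pair differed as much (-4.14 ± 0.11), and the difference of differences was 0.16 ± 0.15 (adjusted p = 0.485). The integrin-binding matrix protein EDIL3 differed by -3.38 ± 0.18, the spermine oxidase SMOX by -3.26 ± 0.06, the glycosyltransferase GALNT15 by -3.41 ± 0.1 and the death ligand TNFSF10 by -3.12 ± 0.12. LRATD2 (-3.72 ± 0.1), PTGFRN (-3.19 ± 0.07) and the matricellular protein SMOC1 (-2.79 ± 0.09) completed the 20 largest together with genes described below.

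**Figure D3:**
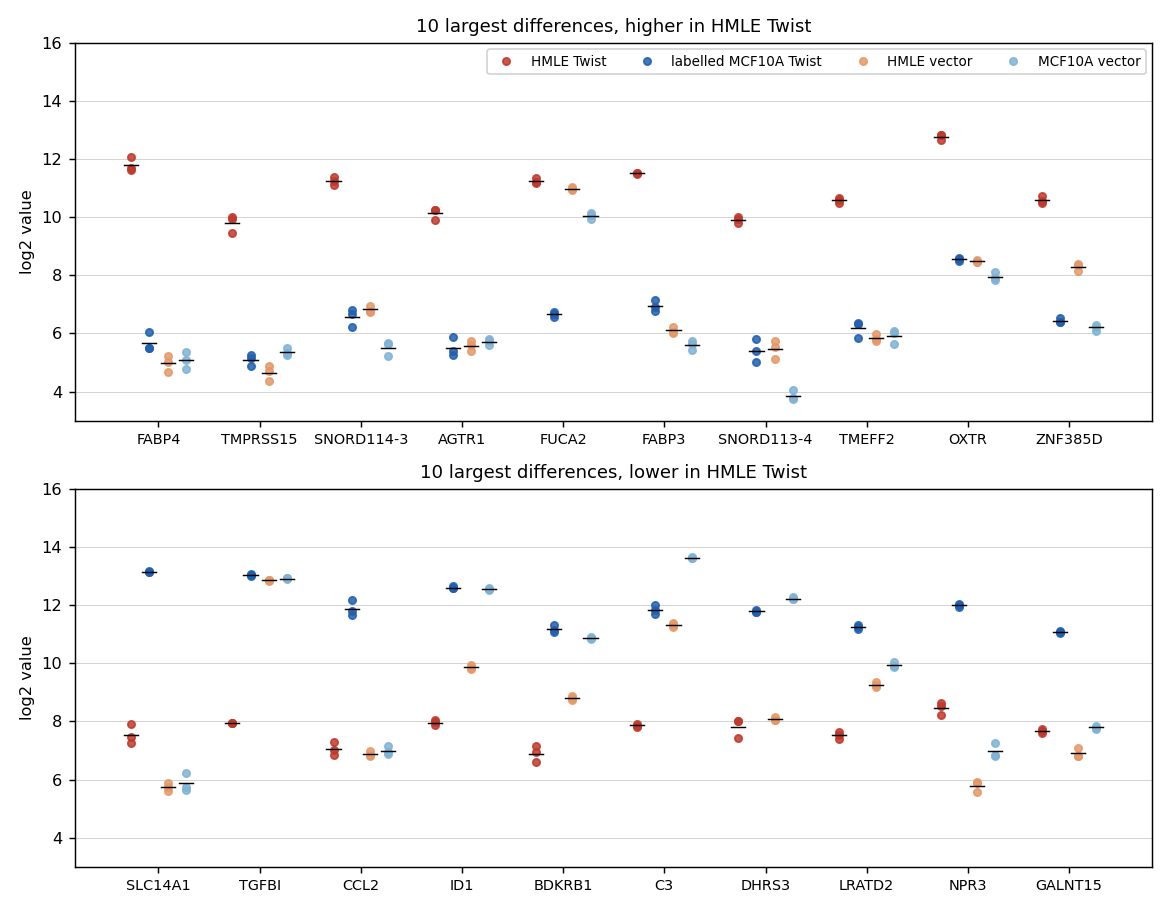
Log2 values of the 10 genes with the largest positive (top) and the 10 with the largest negative (bottom) difference, 1 point per array and a bar at the mean of 3, for HMLE Twist, labelled MCF10A Twist, HMLE vector and MCF10A vector. HMLE Twist is above the other 3 groups for FABP4, AGTR1, FABP3 and OXTR, and labelled MCF10A Twist is below them for FUCA2 and above them for SLC14A1 and CCL2.

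None of the 8 core EMT genes differed by 2-fold between the groups, and fewer of them were alike (4 of 8) than of all genes (76.8%). TWIST1 had 11.66, 11.43 and 11.4 in HMLE Twist, against 11.01, 11 and 10.96 in labelled MCF10A Twist, a difference of 0.5 ± 0.07 (adjusted p = 1.34e-05) that stayed under 2-fold. The groups did not overlap. The vector means were 9.69 ± 0.01 in HMLE and 10.07 ± 0.09 in MCF10A, below every Twist array. CDH1, E-cadherin of adherens junctions, had 6.41, 6.64 and 6.79 in HMLE Twist, against 6.61, 7.11 and 6.83 in labelled MCF10A Twist. These values overlapped, and the difference of -0.23 ± 0.11 had a 95% interval from -0.47 to 0.0 (adjusted p = 0.122). EPCAM, an adhesion molecule of epithelia, differed by -0.37 ± 0.11 (interval -0.59 to -0.14). ZEB1, a repressor of CDH1, had 11.63, 11.49 and 11.58 in HMLE Twist against 11.8, 11.71 and 11.72 in labelled MCF10A Twist, and the intermediate filament vimentin, VIM, had 14.04, 14.09 and 14.12 in HMLE Twist against 13.81, 13.8 and 13.81 in labelled MCF10A Twist. ZEB1 and VIM were both alike, with differences of -0.18 ± 0.06 and 0.28 ± 0.04. FN1, fibronectin, was alike too at 0.27 ± 0.05, although the vector pair differed by 2.37 ± 0.05. CDH2, N-cadherin, differed by -0.98 ± 0.07, just under the 2-fold limit, and SNAI1, which encodes Snail, by -0.73 ± 0.09.

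Many epithelial genes were low in both Twist groups, and the shares alike below stand beside 76.8% of all genes, the shares called beside 3.4%. All 4 measured basal keratins were alike. KRT5 had 7.56, 7.54 and 7.44 in HMLE Twist and 7.71, 7.5 and 7.93 in labelled MCF10A Twist, against vector means of 14.24 ± 0.02 in HMLE and 14.08 ± 0.03 in MCF10A. KRT14, its partner in basal cells, had 8.88, 8.98 and 8.87 in HMLE Twist and 8.65, 8.78 and 8.53 in labelled MCF10A Twist, with vector means of 13.89 ± 0.1 in HMLE and 13.23 ± 0.14 in MCF10A. Of 20 junction and polarity genes 0 were called and 13 were alike, and of 19 epithelial surface and trafficking genes again 0 and 13. The widest differences there were the polarity gene PARD6B (-0.82 ± 0.13) and the trafficking protein MAL2 (0.97 ± 0.11). Among 16 luminal keratins and products 11 were alike and 2 were lower in HMLE Twist. CD24, a surface glycoprotein of luminal cells, had 6.2, 5.63 and 5.41 in HMLE Twist, against 9.28, 8.88 and 9.08 in labelled MCF10A Twist. All labelled arrays were higher, and the difference was -3.34 ± 0.16 (adjusted p = 8.07e-11). KRT7, a simple-epithelial keratin, differed by -1.83 ± 0.08, while KRT8 (-0.52 ± 0.1) and KRT18 (-0.28 ± 0.1) were not called.

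Desmosome and hemidesmosome genes held 5 that were higher in HMLE Twist, of 16 measured, with 0 lower and 9 alike. That is 31.2% called, against 3.4% of all genes, and 56.2% alike, against 76.8%. DSC3, a desmosomal cadherin, had 7.91, 7.48 and 7.32 in HMLE Twist, against 5.42, 5.66 and 5.31 in labelled MCF10A Twist, a difference of 2.11 ± 0.13. LAMB3, a laminin-332 chain that hemidesmosomes bind, differed by 1.58 ± 0.08, the linker DST by 1.39 ± 0.09, the hemidesmosomal integrin ITGA6 by 1.26 ± 0.05 and periplakin, PPL, by 1.04 ± 0.09. DSC3, LAMB3 and ITGA6 were below both vector means in both Twist groups. Of 16 epithelial transcriptional regulators 12 were alike and GATA3 alone was called. GATA3, a regulator of luminal differentiation, had 11.09, 10.85 and 11.02 in HMLE Twist, against 8.99, 8.87 and 8.95 in labelled MCF10A Twist. It differed by 2.05 ± 0.07, while the vector pair differed by -1.21 ± 0.07, the opposite direction. Among 15 EMT transcription factors PRRX1 (1.25 ± 0.12) and LEF1 (1.22 ± 0.1) were higher in HMLE Twist, 0 were lower and 8 were alike.

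Of 17 elastic fibre genes 6 were higher in HMLE Twist, 0 were lower and 8 were alike. The called share was 35.3%, against 3.4% of all genes, and the alike share 47.1%, against 76.8%. FBLN5, fibulin 5, which links elastin to cells, had 12.9, 12.84 and 12.85 in HMLE Twist, against 8.94, 8.73 and 8.73 in labelled MCF10A Twist. The groups were far apart, by 4.06 ± 0.08 (adjusted p = 6.53e-16). FBN1, fibrillin 1 of microfibrils, had 12.14, 12.01 and 12.15 in HMLE Twist, against 10.07, 10.03 and 9.93 in labelled MCF10A Twist, a difference of 2.09 ± 0.07, and both groups were above the vector means of 7.47 ± 0.12 in HMLE and 7.91 ± 0.01 in MCF10A. The crosslinking enzyme LOX differed by 1.47 ± 0.06, the microfibril proteins MFAP4 and MFAP2 by 1.58 ± 0.12 and 1.26 ± 0.17, and FBN2 by 1.2 ± 0.08. The median over the 17 genes was 0.16, against -0.01 over all genes. ABI3BP, a matrix protein outside the list and among the 20 largest, had 13.06, 13.12 and 13.19 in HMLE Twist, against 9.69, 9.33 and 9.51 in labelled MCF10A Twist.

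Other matrix genes differed one by one, and the counts here stand beside 3.4% of all genes called and 76.8% alike. Of 25 collagens 3 were higher in HMLE Twist and 15 were alike: COL1A2 (2.48 ± 0.08), COL10A1 (1.77 ± 0.12) and COL8A1 (1.54 ± 0.15). COL1A1, whose chain pairs with that of COL1A2 in type I collagen, differed by 0.74 ± 0.08 and was not called. POSTN, periostin, had 9.32, 9.12 and 9.33 in HMLE Twist, against 5.69, 5.88 and 5.56 in labelled MCF10A Twist, a difference of 3.55 ± 0.09. Both vector means lay between the Twist groups, at 8.15 ± 0.14 in HMLE and 8.62 ± 0.12 in MCF10A. The proteoglycan VCAN was lower in HMLE Twist (-2.04 ± 0.15), and the proteoglycan LUM (1.41 ± 0.08) and ECM1 (2.43 ± 0.08) were higher. Among 19 metalloproteases and their inhibitors 3 were lower, 0 higher and 10 alike. MMP1, interstitial collagenase, had 7.96, 7.8 and 8.06 in HMLE Twist, against 11.2, 11.12 and 11.37 in labelled MCF10A Twist, and differed by -3.29 ± 0.12. MMP16 differed by -1.72 ± 0.12 and the gelatinase MMP2 by -1.08 ± 0.06. Of 11 basement membrane genes 0 were called and 7 were alike, with NID1, nidogen, at -0.14 ± 0.11.

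Mesenchymal surface genes split by gene, and the counts here stand beside 3.4% of all genes called and 76.8% alike. Of 21 mesenchymal markers 3 were higher and 2 lower in HMLE Twist, and 10 were alike. NT5E, the ectonucleotidase CD73, differed by 2.55 ± 0.06 and the cadherin CDH11 by 2.45 ± 0.11, while the growth factor receptor PDGFRA (-1.78 ± 0.11) and the surface protease FAP (-1.51 ± 0.1) were lower. PDGFRA had 7.02, 7.21 and 7.26 in HMLE Twist, against 9.04, 8.96 and 8.83 in labelled MCF10A Twist, and its vector means were 6.53 ± 0.14 in HMLE and 6.4 ± 0.23 in MCF10A. Among 17 integrins ITGA2 (1.77 ± 0.07), ITGA10 (1.66 ± 0.08), ITGA6 and ITGA3 (1.03 ± 0.05) were higher, ITGB3 (-1.9 ± 0.09) was lower and 8 were alike. The smooth muscle actin ACTG2 was the single called gene of 18 contractile and cytoskeletal genes, with 10.78, 10.64 and 10.94 in HMLE Twist, against 7.56, 7.65 and 7.72 in labelled MCF10A Twist, and 11 were alike. ANKRD1, a target of YAP, had 10.95, 10.81 and 10.96 in HMLE Twist, against 7.33, 6.95 and 6.79 in labelled MCF10A Twist, and differed by 3.89 ± 0.12. With it F3, tissue factor, was called among 18 YAP and TEAD targets, and 12 were alike.

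ID1, ID2 and ID3 were lower in HMLE Twist. ID1 had 7.97, 8.05 and 7.87 in HMLE Twist, against 12.65, 12.59 and 12.58 in labelled MCF10A Twist. The difference was -4.65 ± 0.07, or 25.0-fold (adjusted p = 8.3e-17). ID3 had 8.12, 7.97 and 8.25 in HMLE Twist and 11.56, 11.34 and 11.37 in labelled MCF10A Twist, a difference of -3.31 ± 0.11, and ID2 had 8.22, 7.81 and 7.69 in HMLE Twist and 10.52, 10.39 and 10.53 in labelled MCF10A Twist, a difference of -2.57 ± 0.14. None of the 3 overlapped between the groups, and ID4, at -0.15 ± 0.08, was alike. The vector pair differed in the same direction, by -2.69 ± 0.07 for ID1, -1.82 ± 0.11 for ID3 and -3.91 ± 0.14 for ID2. The difference of differences, the Twist pair minus the vector pair, was -1.95 ± 0.1 for ID1, -1.49 ± 0.15 for ID3 and 1.34 ± 0.2 for ID2 (adjusted p = 2e-10, 4.66e-07 and 3.71e-05). The gap was thus wider than between vectors for ID1 and ID3 and narrower for ID2. ID1 averaged 12.61 ± 0.04 in labelled MCF10A Twist and 12.55 ± 0.04 in MCF10A vector, and ID2 10.48 ± 0.08 in labelled MCF10A Twist and 10.62 ± 0.17 in MCF10A vector, which are near each other.

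GREM1 and CHRDL1, a pair of secreted BMP antagonists, were the genes of the BMP and ID list that were higher in HMLE Twist. GREM1, gremlin, had 12.7, 12.67 and 12.61 in HMLE Twist, against 10.74, 10.76 and 10.68 in labelled MCF10A Twist, a difference of 1.93 ± 0.12. CHRDL1, a chordin-like antagonist, had 10.93, 10.88 and 10.79 in HMLE Twist and 8.45, 8.39 and 8.27 in labelled MCF10A Twist and differed by 2.5 ± 0.1. For GREM1 the vector pair differed more (3.03 ± 0.12), and for CHRDL1 less (0.93 ± 0.1). The ligands BMP4 (-0.9 ± 0.16) and BMP2 (-0.24 ± 0.12) and the receptors BMPR2 (0.57 ± 0.07) and BMPR1B (0.06 ± 0.1) were not called. BMP2, BMPR2 and BMPR1B were chosen after their values were seen. Of 17 BMP and ID genes 2 were higher, 3 lower and 7 alike. These counts and the next stand beside 3.4% of all genes called and 76.8% alike. Of 23 TGF-beta and activin genes 0 were higher, 15 were alike and 3 were lower: TGFBI, the SMAD corepressor SKIL (-1.23 ± 0.12) and the ligand TGFB2 (-1.15 ± 0.06).

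Inflammatory genes were mostly lower in HMLE Twist where they differed. Of 23 cytokines and NF-kB targets 7 were lower, 1 was higher and 10 were alike, with a median of -0.45 against -0.01 over all genes. The called share was 34.8%, against 3.4% of all genes, and the alike share 43.5%, against 76.8%. CCL2, which attracts monocytes, had 6.86, 7.29 and 7.01 in HMLE Twist, against 12.19, 11.79 and 11.66 in labelled MCF10A Twist. All labelled arrays were higher, the difference was -4.83 ± 0.13, and the vector means were 6.88 ± 0.1 in HMLE and 6.99 ± 0.13 in MCF10A. IL6 had 6.48, 6.32 and 6.52 in HMLE Twist, against 8.98, 8.72 and 8.61 in labelled MCF10A Twist, and differed by -2.33 ± 0.1. For both cytokines HMLE Twist lay near the vector groups and labelled MCF10A Twist above them. The chemokines CCL20 (-1.47 ± 0.1), CXCL2 (-1.4 ± 0.11) and CXCL1 (-1.36 ± 0.11) and IL1B (-1.22 ± 0.12) were also lower. For CCL20, CXCL1, CXCL2 and IL1B the HMLE Twist mean lay below both vector means.

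C3 and some genes chosen after their values were seen were also lower in HMLE Twist. C3, the central complement component, had 7.92, 7.85 and 7.82 in HMLE Twist, against 12, 11.82 and 11.71 in labelled MCF10A Twist, a difference of -3.98 ± 0.06, with vector means of 11.32 ± 0.08 in HMLE and 13.63 ± 0.02 in MCF10A. The C1 proteases C1R (-1.77 ± 0.09) and C1S (-1.77 ± 0.08), the acute phase genes SAA2 (-2.03 ± 0.16) and SERPINA3 (-1.89 ± 0.14), the transcription factor CEBPD (-1.59 ± 0.06) and the mitochondrial superoxide dismutase SOD2 (-1.54 ± 0.08) were lower in HMLE Twist too. These 6 genes were chosen after their values were seen. NFKBIA, the inhibitor of NF-kB that NF-kB itself induces, differed by -0.53 ± 0.05 and ICAM1 by -0.72 ± 0.06, both under the 2-fold limit and also chosen afterwards. Interferon response genes showed no such shift in their median, which was 0.01, with 3 of 28 higher, 1 lower and 18 alike. That is 14.3% called, against 3.4% of all genes, and 64.3% alike, against 76.8%. PTGES, a synthase of prostaglandin E2 and one of the 20 line genes, also chosen afterwards, had 8.71, 8.82 and 8.79 in HMLE Twist, against 11.1, 11.02 and 11.04 in labelled MCF10A Twist.

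RNAs of the imprinted region at 14q32, which encodes MEG3 and long runs of small nucleolar RNAs and miRNAs, were among the genes higher in HMLE Twist. Of 27 measured genes from DLK1 to DIO3, its protein-coding ends, 10 were higher (37.0%, against 2.03% of all genes), 0 were lower and 6 were alike, with a median of 0.7. All 6 measured small nucleolar RNA genes and 3 of the 16 miRNA genes were among the 10. The region was examined because members of it led the ranking, so these counts are no test. SNORD114-3 had 11.1, 11.24 and 11.37 in HMLE Twist, against 6.8, 6.22 and 6.65 in labelled MCF10A Twist, and SNORD113-4 had 9.92, 9.78 and 9.99 in HMLE Twist, against 5.79, 5.01 and 5.38 in labelled MCF10A Twist. The differences were 4.68 ± 0.14 and 4.5 ± 0.17. Both are among the 20 largest. MEG3, a long non-coding RNA, had 10.78, 10.45 and 10.86 in HMLE Twist, against 7.92, 7.9 and 7.98 in labelled MCF10A Twist, a difference of 2.76 ± 0.1. SNORD113-3 (2.49 ± 0.18), SNORD114-2 (2.96 ± 0.13), SNORD114-6 (2.28 ± 0.18) and SNORD114-26 (3.25 ± 0.12) were higher as well. Copies within the SNORD113 and SNORD114 families resemble each other, so their probe sets may share signal. The miRNA genes MIR154, MIR382 and MIR410, whose mature strands are printed above, differed by 1.81 ± 0.15, 1.59 ± 0.16 and 1.09 ± 0.12. MEG3 averaged 11.39 ± 0.15 in HMLE Snail, 7.33 ± 0.11 in MCF10A Snail, 7.87 ± 0.09 in HMLE vector and 7.4 ± 0.07 in MCF10A vector. HMLE Snail and HMLE Twist were thus the high groups.

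MIR221 and MIR222, neighbours on the X chromosome with a common seed, were higher in HMLE Twist. MIR221 had 11.86, 11.47 and 11.68 in HMLE Twist, against 10.45, 10.29 and 10.26 in labelled MCF10A Twist, and MIR222 had 10.5, 9.72 and 10.19 in HMLE Twist, against 8.62, 8.63 and 8.7 in labelled MCF10A Twist. The differences were 1.34 ± 0.11 and 1.49 ± 0.19, and the vector pair differed by 2.19 ± 0.11 and 1.56 ± 0.19. MIR21 was lower, with 9.2, 8.88 and 9.13 in HMLE Twist, against 10.42, 10.29 and 10.16 in labelled MCF10A Twist, a difference of -1.22 ± 0.12. These miRNA genes were chosen after their values were seen.

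**Figure D4:**
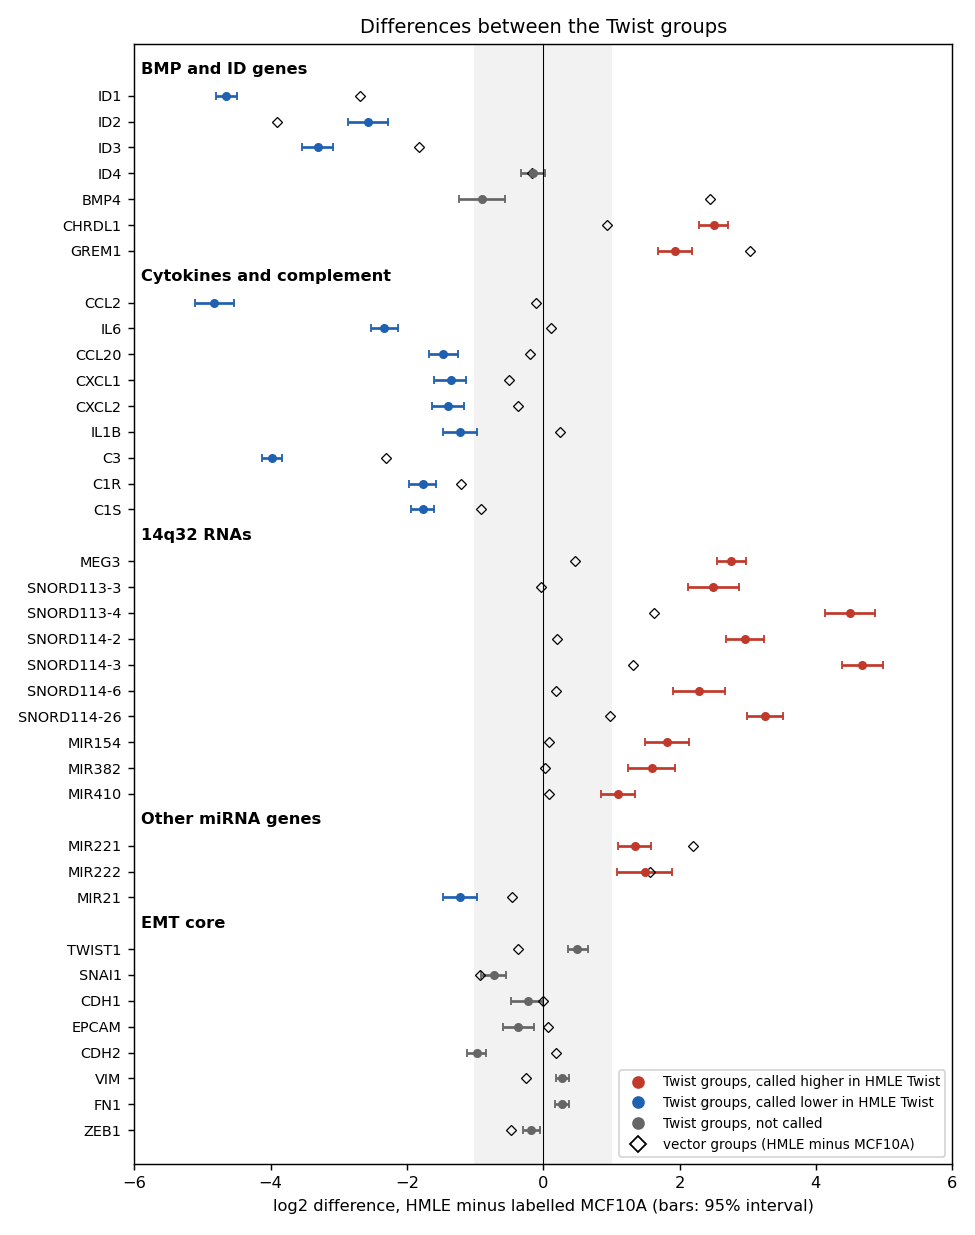
Log2 difference, HMLE Twist minus labelled MCF10A Twist, of single genes in groups, with its 95% interval. Open diamonds give HMLE minus MCF10A in the vector groups, and the grey band spans differences under 1. ID1, CCL2 and C3 lie far to the left, the 14q32 RNAs to the right, and the EMT core genes within the band.

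Guidance and growth factor genes added to the differences, and their counts stand beside 3.4% of all genes called and 76.8% alike. Of 24 axon guidance genes 5 were higher in HMLE Twist, 0 lower and 11 alike. SEMA3A, a secreted semaphorin, had 10.32, 10.0 and 10.27 in HMLE Twist, against 7.39, 7.05 and 7.16 in labelled MCF10A Twist, a difference of 3.0 ± 0.09. SEMA3D (1.99 ± 0.19), SEMA5A (1.69 ± 0.09), the ephrin receptor EPHA4 (1.58 ± 0.07) and the repellent SLIT2 (1.03 ± 0.09) were the others. In the Wnt list WNT5A, a non-canonical ligand, was lower (-1.66 ± 0.1), WNT5B (1.08 ± 0.12), the receptor FZD7 (1.24 ± 0.07) and LEF1 were higher, and 15 of 27 were alike. Of 14 Notch genes 13 were alike and 0 were called. Among 27 mesenchymal growth factors and receptors FGF1 (1.56 ± 0.11), FGF5 (1.25 ± 0.09) and VEGFC (1.1 ± 0.06) were higher, PDGFRA, PDGFA (-1.46 ± 0.06) and PDGFRL (-1.07 ± 0.08) were lower, and 12 were alike. EPGN (2.16 ± 0.09) was the single called gene of 10 in the EGF family, and IGFBP4 (-1.03 ± 0.07), lower in HMLE Twist, that of 12 in the IGF axis.

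Aldehyde dehydrogenases differed in opposite directions. ALDH1A1, which oxidises retinal, had 9.15, 8.17 and 8.3 in HMLE Twist, against 5.31, 5.32 and 5.26 in labelled MCF10A Twist, a difference of 3.24 ± 0.18. ALDH1A3, an enzyme of the same reaction, had 10.35, 10.44 and 10.31 in HMLE Twist and 12.88, 12.81 and 12.82 in labelled MCF10A Twist, a difference of -2.48 ± 0.13. ALDH3A1 was higher by 1.02 ± 0.1. Of 15 stem cell and ALDH genes 3 were higher, 1 lower and 9 alike. These counts and those that follow stand beside 3.4% of all genes called and 76.8% alike. SLC7A11, the cystine importer, was the single called gene of 16 NRF2 and aldo-keto reductase genes (2.39 ± 0.08), and 12 of them were alike. In the list of coagulation and plasminogen genes SERPINB5 (1.97 ± 0.07), F3 (1.31 ± 0.06) and PLAT (1.0 ± 0.06) were higher, TFPI2 was lower and 7 of 14 were alike.

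Markers of other cell types are to be read beside the 76.8% of all genes that were alike and the 3.4% called. All endothelial markers apart from FABP4 and ROBO4 (1.21 ± 0.07) were alike, 13 of 15, including PECAM1 (0.13 ± 0.11) and TEK (0.06 ± 0.13). The summed level of the 15 endothelial markers, on the log2 scale, ran from 12.5 to 12.83 in HMLE Twist and from 11.27 to 11.45 in labelled MCF10A Twist, and FABP4 is in that sum. Of 12 adipocyte markers FABP4 alone was called, 7 were alike, and the sums ran from 13.48 to 13.66 in HMLE Twist and from 13.2 to 13.21 in labelled MCF10A Twist. Of 13 leukocyte markers 10 were alike and CD14 (-1.2 ± 0.11) was lower in HMLE Twist, with PTPRC, which defines leukocytes, at 5.23 ± 0.17 in HMLE Twist and 4.62 ± 0.09 in labelled MCF10A Twist. The leukocyte sums ran from 12.8 to 12.89 in HMLE Twist and from 12.42 to 12.49 in labelled MCF10A Twist. Of 15 fibroblast markers 3 were higher, 2 lower and 7 alike, with sums from 14.62 to 14.73 in HMLE Twist and from 14.22 to 14.26 in labelled MCF10A Twist. Of 16 neural and melanocyte markers 0 were called and 10 were alike, with sums from 11.55 to 11.65 in HMLE Twist and from 11.44 to 11.53 in labelled MCF10A Twist. The part of other cells in the differences was not tested.

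Genes of growth and upkeep varied by list in how many were alike, beside 76.8% of all genes. Of 28 cell cycle genes 0 were called and 21 were alike, with a median of -0.2. The replication helicase subunit MCM7 (-0.99 ± 0.05) and cyclin E, CCNE1 (-0.97 ± 0.06), lay just under the limit. CCND1 (1.19 ± 0.05) and CCND2 (1.28 ± 0.08), D-type cyclins, were higher in HMLE Twist among 12 cyclins and CDK inhibitors, of which 4 were alike. CDKN2A and CDKN2B, the inhibitors at 9p21, differed by -0.25 ± 0.08 and -0.34 ± 0.15. No gene was called among 21 ribosomal proteins (18 alike), 21 proteasome subunits (17), 23 respiratory chain genes (17), 21 glycolysis and hypoxia genes (17), 18 unfolded protein response genes (16), 27 HOX genes (20), 12 cancer-testis genes (12) or 11 antigen presentation genes (7). A count of 0 here concerns the size limit in limma. At an unadjusted p under 0.05, 20 of the ribosomal genes, 16 of the proteasome, 19 of the respiratory chain, 18 of the cell cycle, 10 of the HOX and 10 of the unfolded protein response genes passed, beside 42.5% of all genes. Among other lists with 0 called genes, 3 of the 3 genes at 9p21, 12 of the 21 glycolysis and hypoxia, 1 of the 12 cancer-testis, 6 of the 11 antigen presentation, 16 of the 18 p53, 2 of the 14 Notch, 8 of the 11 basement membrane, 6 of the 16 neural and melanocyte and 7 of the 8 core EMT genes passed at that p. So did 2 of the 4 basal keratins, 9 of the 20 junction and polarity genes and 6 of the 19 surface and trafficking genes. Sterol and fatty acid synthesis stood out by its median of 0.49 over 16 genes, only 3 of which were alike. FASN, fatty acid synthase, was called (1.15 ± 0.06), and LSS (0.96 ± 0.06), HMGCS1 (0.91 ± 0.07), FDPS (0.88 ± 0.06) and FADS2 (0.85 ± 0.05) lay under the limit. The 18 p53 targets had a median of 0.4 with 8 alike and 0 called, led by CDKN1A at 0.99 ± 0.05.

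**Figure D5:**
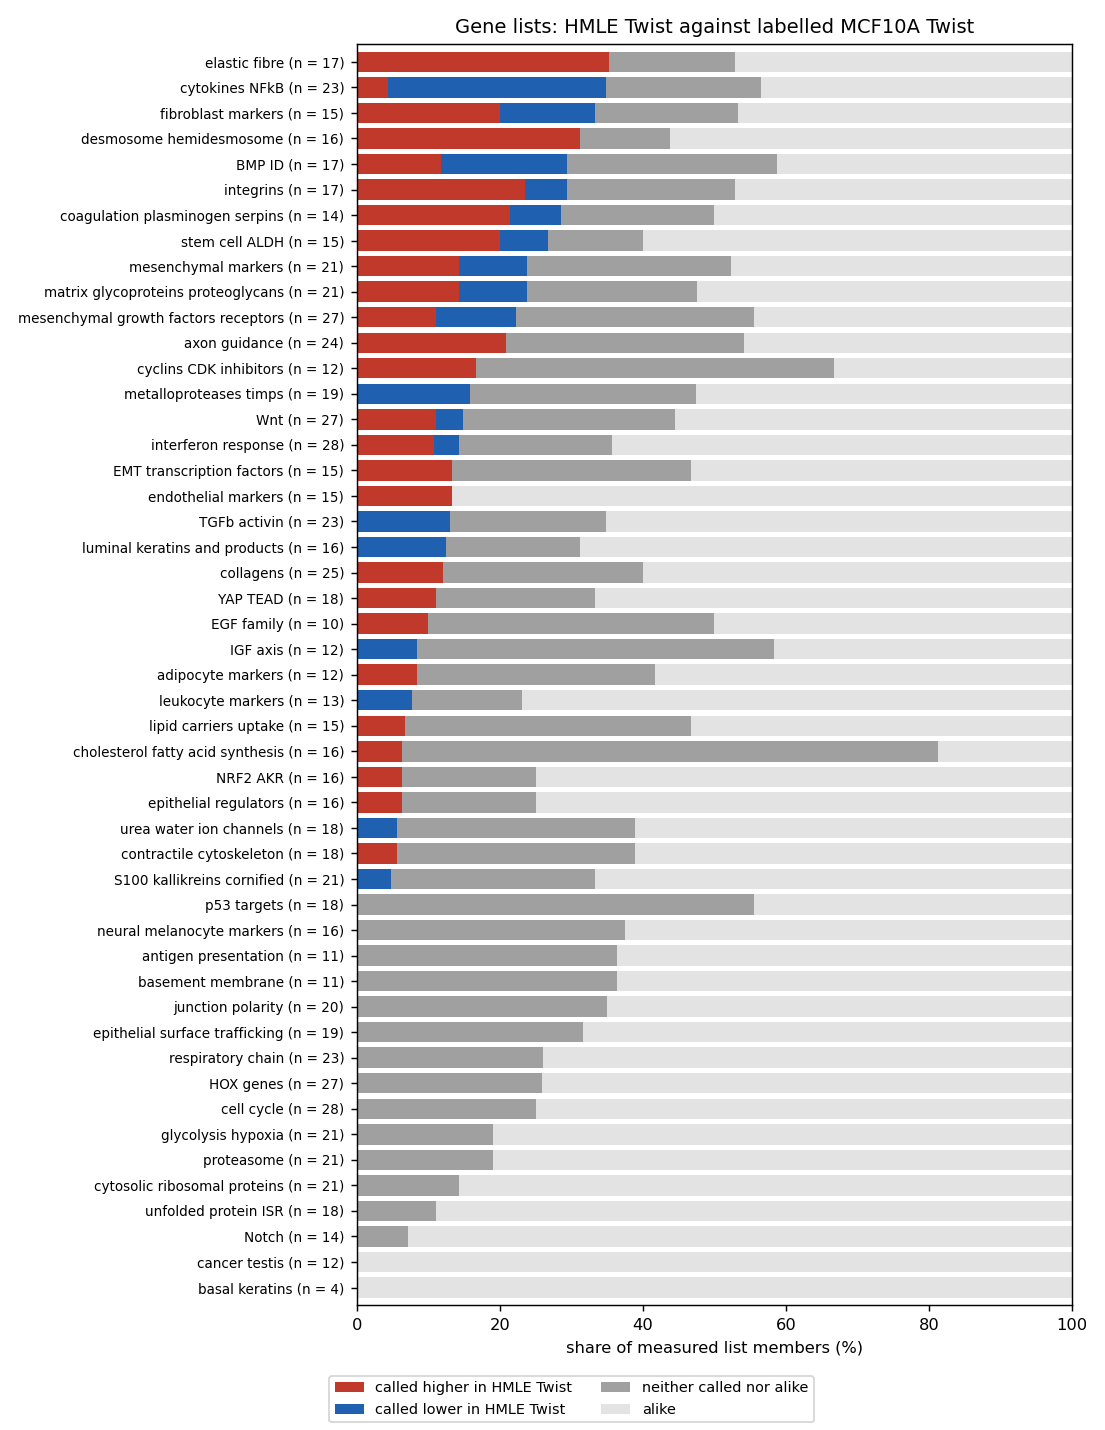
Share of the measured members of each gene list drawn that were called higher in HMLE Twist, called lower, neither called nor alike, and alike, with the number measured. The lists of given markers, EMT core genes and 9p21 genes are not drawn. Among those drawn, elastic fibre genes (6 of 17) and cytokines and NF-kB targets (8 of 23) hold the largest called shares, and basal keratins and cancer-testis genes are alike throughout.

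Where the called genes stood against the vector groups was described by a margin of 1 on the log2 scale, without a test. Of the 374 genes higher in HMLE Twist, 132 had the HMLE Twist mean above both vector means and the labelled MCF10A Twist mean within their range. In 32 both Twist means were above, in 20 both below and in 128 both within. Of the 253 lower genes, 64 had only the labelled MCF10A Twist mean above both vectors, 42 had only the HMLE Twist mean below both, and 115 had both within. In 19 both Twist means were above and in 11 both below. Only 3 genes in all had the Twist groups on opposite sides.

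The pair of vector groups and the pair of Snail groups, which share no array with the Twist pair, were set beside it. The vector pair had 1170 called genes, 6.35% of all, and 165 of these were called between the Twist groups in the same direction, which is 26.3% of the Twist calls and 14.1% of the vector calls. Another 42 were called in the opposite direction. Of the 1170 genes 562, or 48.0%, were alike between the Twist groups. The Snail pair had 1648 called genes (8.95%), 277 of them shared in direction with the Twist pair, 44.2% of the Twist calls and 16.8% of the Snail calls, and 691, or 41.9%, were alike between the Twist groups. The test of the difference of differences, the Twist pair minus the vector pair, called 1509 genes (8.19%), 767 up and 742 down. ANPEP, an aminopeptidase, was among the largest, with 13.01, 12.97 and 12.97 in HMLE Twist and 12.69, 12.66 and 12.63 in labelled MCF10A Twist, alike, against vector means of 7.48 ± 0.05 in HMLE and 13.33 ± 0.04 in MCF10A. The activin antagonist FST had 7.96, 7.93 and 8.27 in HMLE Twist and 9.05, 8.78 and 8.88 in labelled MCF10A Twist in the Twist groups, against vector means of 12.52 ± 0.05 in HMLE and 7.98 ± 0.22 in MCF10A. Across genes the group means of HMLE Twist correlated with labelled MCF10A Twist at r = 0.979 and with HMLE Snail at r = 0.983. Labelled MCF10A Twist correlated with HMLE Snail at r = 0.965, with MCF10A Snail at r = 0.946, with HMLE vector at r = 0.941 and with MCF10A vector at r = 0.932. These are descriptions over 18417 genes that share the array design.

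Genes on which both Twist groups left both vector groups in the same direction were counted by a distance of at least 3. There were 23 above, of which 9 were alike between the Twist groups and 7 called, and 78 below, of which 48 were alike and 7 called. Since the rule holds both Twist groups to one side, these counts carry no test. The alike genes above included ZEB1, COL3A1, a fibrillar collagen (0.02 ± 0.1), the collagen receptor DDR2 (0.19 ± 0.07), the lysophospholipase ENPP2 (0.26 ± 0.09), the growth factor receptor PDGFRB (0.22 ± 0.09) and the T-box factor TBX18 (0.01 ± 0.12). TBX18 had 11.59, 11.28 and 11.46 in HMLE Twist and 11.49, 11.45 and 11.37 in labelled MCF10A Twist, against vector means of 7.27 ± 0.06 in HMLE and 6.65 ± 0.25 in MCF10A. The alike genes below included plakoglobin, JUP (0.11 ± 0.07), the splicing regulator ESRP2 (-0.17 ± 0.11), the protease inhibitor SPINT1 (-0.18 ± 0.07), the hemidesmosomal integrin ITGB4 (-0.1 ± 0.07) and the cornified envelope precursors SPRR1A (0.1 ± 0.1) and SPRR1B (-0.13 ± 0.12). ESRP2 had 7.08, 7.44 and 7.61 in HMLE Twist and 7.34, 7.62 and 7.68 in labelled MCF10A Twist, which overlap, against vector means of 10.75 ± 0.04 in HMLE and 10.62 ± 0.06 in MCF10A.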

How the data were processed

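Total RNA of 18 samples was measured on Affymetrix Human Gene 1.0 ST arrays. The deposited values are on the log2 scale, 33297 probe sets per array, which the authors computed by RMA (per the submitters' processing notes). The scale was read from the values. Not given in the sources used here are the RMA software version and whether all arrays were normalized together. The number of arrays limits the precision.

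Groups came from the sample titles. Symbols came from the platform annotation and were updated by gene ID: 19460 probe sets had 1 symbol, 1754 had several and 12083 had none listed, and 19429 matched the GRCh38.p14 gene table. For 769 genes with over 1 probe set the one with the highest mean was used. No arrays were identical. Levels of different probe sets were not compared. Single array values of 11.00 and 12.00 are printed as whole numbers.

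Differences were fitted with limma 3.58.1 in R 4.3.3, as 6 group means over 18 arrays with 12 residual degrees of freedom and Benjamini-Hochberg adjustment over 18417 genes. The difference of differences was a contrast in the same fit. The 52 gene lists (891 of 976 entries measured) were described by counts and medians, without a set test. The summed level of a list is the log2 of the sum of its linear values. The members, lists and tests were chosen with earlier results of these data known. Genes were named from the EMT core and marker genes, the 20 largest differences each way, up to 6 largest and 4 alike genes per list, 10 line genes, 15 shared genes each way and the 10 largest differences of differences each way. Others are said to be chosen after their values were seen.

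Deviations from group means of arrays with the same replicate number correlated at 0.64, 0.54 and 0.13 between HMLE Twist and labelled MCF10A Twist. Each was over 0.1, so the numbers, taken from the titles, may pair these arrays. The main fit, with its SEs, intervals and p-values, did not use the numbers and is unpaired. Other pairs of groups varied, some positive throughout and some of mixed or negative sign. Labelled MCF10A Twist and MCF10A Snail correlated at 0.45, 0.37 and 0.11, each over 0.1 too, so this likeness was not particular to the Twist groups. HMLE Twist and HMLE vector correlated at -0.24, -0.52 and 0.03, and HMLE Twist and MCF10A Snail at 0.53, 0.5 and 0.09. A second model added the replicate number as a block over all 18 arrays, so it does not test a pairing of the Twist arrays by themselves. Alternatives covered normalization, array weights (gene-by-gene estimates, a method chosen after the default estimate put nearly all weight of HMLE Twist on 1 array), variance options, the choice of probe set, a filter on dim genes, the arrays in the fit, thresholds and each Twist array left out. For the difference of differences each vector array was left out as well. Figures were drawn with matplotlib 3.10.9.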

Additional observations from a re-analysis of the deposited data

Results flagged for a closer look

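The gap between the Twist groups was not that between the vector groups for many genes. The difference of differences, HMLE minus labelled MCF10A under Twist less HMLE minus MCF10A under vector, was called for 1509 genes. Among the marker and core genes it was 6.23 ± 0.27 for FABP4, -5.49 ± 0.23 for SLC14A1, -7.13 ± 0.19 for TFPI2, -5.04 ± 0.08 for TGFBI, -1.18 ± 0.09 for CDH2 and -2.1 ± 0.07 for FN1 (log2, ± SE). The Twist pair differed by 0.27 ± 0.05 in FN1, against 2.37 ± 0.05 in the vector pair. The 9p21 genes gave -4.98 ± 0.18 for MTAP, -1.92 ± 0.12 for CDKN2A and -2.24 ± 0.22 for CDKN2B. These 3 had differences of -0.7 ± 0.12, -0.25 ± 0.08 and -0.34 ± 0.15 between the Twist groups, against 4.28 ± 0.12, 1.67 ± 0.08 and 1.9 ± 0.15 between the vector groups.

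Among the largest positive values were RANBP17 (6.38 ± 0.13), ANPEP (6.18 ± 0.07), TMPRSS15 (5.41 ± 0.21) and CDH10 (5.33 ± 0.17), and among the largest negative ones UCA1 (-5.66 ± 0.14) and FST (-5.4 ± 0.17). RANBP17 had 8.61, 8.24 and 8.39 in HMLE Twist, against 5.72, 5.84 and 5.55 in labelled MCF10A Twist, while its vector means were 5.54 ± 0.1 in HMLE and 9.21 ± 0.02 in MCF10A. UCA1, a long non-coding RNA, differed by 0.18 ± 0.1 between the Twist groups, against 5.83 ± 0.1 between the vector groups. Single arrays that stand apart were not looked for, because each group has 3 arrays.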

How the results depend on the processing

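Most counts moved little. A limma fit of the 6 Twist arrays alone also called 627 genes, with 13095 alike. There the adjusted p was 3.94e-07 for FABP4, against 2.66e-13 in the fit of all arrays, and 0.0561 for EPCAM, against 0.0113. With array weights 623 genes were called, by the estimate chosen after the data were seen, since the default was not usable. With the replicate number as a block the fit called 627 genes, the same 627, with 14327 alike and 1510 in the difference of differences, and it changed no other call. Leaving out 1 Twist array at a time gave 612 to 650 called genes (336 to 413 higher, 229 to 276 lower) and 13094 to 13808 alike genes. It gave 104 to 110 called list entries and 18 to 19 line genes nearer HMLE in the labelled MCF10A Twist arrays. For the difference of differences each Twist or vector array was left out in turn, which gave 1497 to 1538 genes. The filter on dim genes, which tests fewer genes, left 345 called (202 higher, 143 lower), 6783 alike, 861 in the difference of differences, 68 called list entries against 105, and 11 of 12 line genes. By adjusted p alone 6660 genes were called, with an adjusted p under 0.01 and a log2 difference of at least 2 there were 140, and with a test against the 2-fold limit itself 336. An interval within 0.3 left 7020 alike genes. Of 759 alternative values for 52 named genes, 758 kept direction and call. CDH2 was called without HMLE Twist replicate 1, and 0 values reversed. The filter on dim genes dropped 21 of these genes. Small differences of dim genes are the most limited, since signal near background is compressed.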

Other observations

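Some further genes were chosen after their values were seen. RARRES1, a gene induced by retinoic acid, had 6.57, 6.94 and 6.74 in HMLE Twist, against 9.21, 8.71 and 9.04 in labelled MCF10A Twist, a difference of -2.24 ± 0.11. RBP4, the plasma carrier of retinol, had 6.0, 6.5 and 6.35 in HMLE Twist, against 8.05, 7.88 and 7.92 in labelled MCF10A Twist, a difference of -1.67 ± 0.12. The groups did not overlap for either gene. RARRES1 averaged 6.53 ± 0.12 in HMLE vector and 8.12 ± 0.1 in MCF10A vector, and RBP4 6.57 ± 0.21 in HMLE vector and 6.69 ± 0.09 in MCF10A vector. CXCL8, a chemokine for neutrophils, was lower as well (-1.15 ± 0.15), and the peptidase TRHDE differed by -1.78 ± 0.13. The cadherin CDH6 had 9.21, 8.74 and 8.83 in HMLE Twist, against 7.09, 7.16 and 7.02 in labelled MCF10A Twist, a difference of 1.84 ± 0.12. These genes form no fixed list. ALDH1A1, which oxidises retinal, was higher in HMLE Twist while RARRES1 and RBP4 were lower. ALDH1A3, an enzyme of the same reaction as ALDH1A1, and the retinal reductase DHRS3 were also lower.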
